A study of Homo sapiens with 6 samples.

Results

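The mitochondrial genome encodes its own small set of RNAs, and their levels and proportions were measured here in human definitive endoderm with and without knockdown of GATA6-AS1, a long noncoding RNA. The members were all genes in the deposited table whose symbol starts with MT-, which gave 37 of 58830 genes, namely 13 messenger RNAs, 2 ribosomal RNAs and 22 transfer RNAs. The 6 libraries came from total RNA of HuES8 cells, an established human embryonic stem cell line, and fell into 3 libraries labelled as GATA6-AS1 knockdown (KD) and 3 labelled as wild type (DE). Both groups went through the same differentiation of 3 days in medium with 0.2% bovine serum albumin, with 100 ng/mL Activin A throughout and 2.5 µM CHIR, an activator of Wnt signalling, on the first day only. The sources used here do not say how GATA6-AS1 was knocked down or whether DE cells received a control construct, and nothing in the labels says that replicates came from separate cultures. The p-values below therefore set differences against the spread among these 6 libraries, and that spread could be technical.

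Mitochondrial DNA is a small circle transcribed from both strands as long precursors that span many genes. Transfer RNAs lie between most of the messenger and ribosomal RNAs, and their excision by RNase P and the RNase Z enzyme ELAC2 frees the RNAs on either side. All 13 messenger RNAs encode subunits of the respiratory chain or of the ATP synthase, which the cell assembles with many more subunits made from nuclear genes. Pluripotent stem cells draw much of their energy from glycolysis, and respiration generally gains weight as they differentiate. In the annotation used here, 28 members lay on the plus strand of chromosome M and 9 on the minus strand, which were MT-ND6 and 8 transfer RNAs.

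GATA6-AS1 had 180, 163 and 126 TPM (a length-corrected share of the library's transcripts) in KD libraries, against 389, 421 and 313 TPM in DE libraries. Every KD library lay under every DE library, and the log2 change was -1.26 (SE 0.164, limma adjusted p = 0.0128). The exact two-sided permutation test over 3 against 3 libraries gave p = 0.1, the smallest it allows. Of 6 definitive endoderm markers 4 fell in KD (FOXA2, CXCR4, GATA4 and CER1), where 3.27% of all genes passed in either direction. The 6 markers summed to 17587 to 19318 TPM in KD libraries and 24253 to 27734 TPM in DE libraries, of which CER1 alone made up 16124 to 17650 TPM in KD libraries and 22060 to 25176 TPM in DE libraries. All 3 pluripotency markers rose, with sums of 1362 to 1594 TPM in KD libraries and 693 to 866 TPM in DE libraries. The part of this difference in cell state in the mitochondrial values was not tested. Fibroblast markers summed to 30.3 to 41.9 TPM in KD libraries and 33.7 to 44.4 TPM in DE libraries, with none passing the test. Cardiomyocyte markers summed to at most 1.38 TPM and neural markers to at most 5.65 TPM in any library. In bulk RNA, more cells of a type and more RNA per cell cannot be told apart.

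The mitochondrial RNAs together took 28.3%, 28.8% and 36.2% of all TPM in KD libraries, against 28.5%, 24.6% and 38.0% in DE libraries. The means were 31.1% ± 4.44 in KD and 30.4% ± 6.92 in DE (SD, n = 3 each), and replicate 3 was the highest library of each group. Expressed as reads, estimated by multiplying TPM by gene length, the share was 7.75%, 7.86% and 10.5% in KD libraries and 7.98%, 6.57% and 11.6% in DE libraries. Reads could be estimated only for the 37138 of 58830 genes matched to one annotated gene, so shares of all reads may be lower. The groups overlapped by either measure. Estimated reads of the matched genes ran over 18640821 to 24510593 in KD libraries and 18990987 to 23759569 in DE libraries, of which 1445524 to 2573289 and 1460234 to 2205148 were mitochondrial. Because TPM are shares of a library whose mitochondrial part varied this much between replicates, each RNA is also given below as its share of the mitochondrial TPM of its own library.

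**Figure D1:**
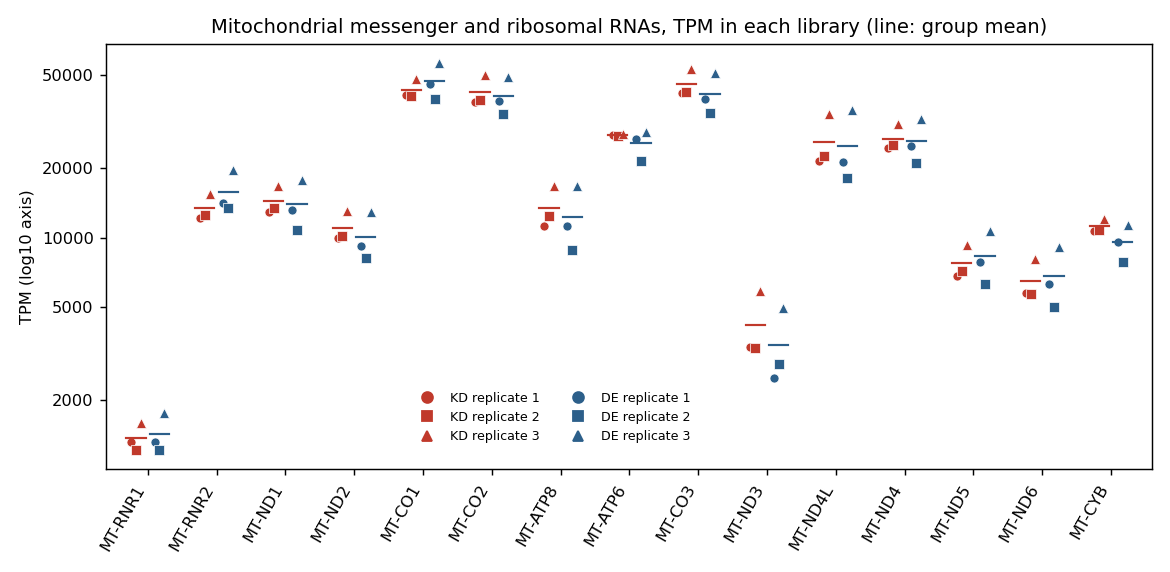
TPM (log10 axis) of the 2 ribosomal and 13 messenger RNAs in genome order. Points are single libraries, with KD left of DE and shapes marking replicates, and lines are group means; replicate 3 was the highest of its group for all 15 RNAs.

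Most of the mitochondrial TPM came from messenger RNAs, which made up 90.5%, 90.3% and 89.9% of it in KD libraries, against 90.0%, 88.7% and 88.4% in DE libraries. Transfer RNAs made up 4.77%, 4.96% and 5.38% in KD libraries and 4.55%, 5.33% and 5.98% in DE libraries, but only 0.380% of the mitochondrial reads in KD and 0.390% in DE on average, since the molecules are short. Ribosomal RNAs made up 4.74%, 4.78% and 4.71% in KD libraries, against 5.41%, 5.93% and 5.59% in DE libraries. The ribosomal share was thus lower in every KD library than in every DE library, at 4.75% ± 0.0349 in KD and 5.64% ± 0.263 in DE (SD, n = 3 each), and the KD libraries lay closer together than the DE libraries did. A sum over members was not tested. How far library preparation, such as removal of ribosomal RNA or poly(A) selection, shaped these shares and the ribosomal RNA levels below was not tested.

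MT-RNR1 (chrM:648-1601, plus strand) and MT-RNR2 (chrM:1671-3229, plus strand), the RNAs of the small and large mitochondrial ribosomal subunits, sit next to each other near the start of one precursor. MT-RNR1 had 1323, 1214 and 1588 TPM in KD libraries, against 1323, 1218 and 1752 TPM in DE libraries. MT-RNR2 had 12091, 12562 and 15487 TPM in KD libraries, against 14116, 13362 and 19509 TPM in DE libraries. By TPM the groups overlapped for both RNAs. As a share of the mitochondrial total, MT-RNR2 was 4.28%, 4.36% and 4.28% in KD libraries and 4.95%, 5.43% and 5.13% in DE libraries, without overlap. The share of MT-RNR1 was 0.468%, 0.422% and 0.438% in KD libraries and 0.464%, 0.495% and 0.460% in DE libraries, with overlap. Of all genes tested, 29.8% did not overlap, with mitochondrial RNAs set against the mitochondrial total and other genes against the remainder. That background also applies to the separations by share below. MT-RNR2 stood at 9.14, 10.3 and 9.75 times the TPM of MT-RNR1 in KD libraries, against 10.7, 10.97 and 11.1 times in DE libraries.

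The 7 messenger RNAs for subunits of complex I, the NADH dehydrogenase, made up 30.9% ± 1.41 of the mitochondrial TPM in KD and 30.5% ± 1.65 in DE (SD, n = 3 each). Per length, MT-ND4 and MT-ND4L were the highest of them, with means of 26704 and 25936 TPM in KD and 26038 and 24895 TPM in DE, and MT-ND3 was the lowest, with 4211 ± 1470 TPM in KD and 3431 ± 1342 TPM in DE. MT-ND1, MT-ND2, MT-ND5 and MT-ND6 lay between, with group means of 6512 to 14331 TPM in KD and 6813 to 13894 TPM in DE. The share of MT-ND2 was 3.52%, 3.52% and 3.59% in KD libraries, against 3.22%, 3.31% and 3.38% in DE libraries, and every KD library was above every DE library. The share of MT-ND5 was 2.41%, 2.49% and 2.57% in KD libraries, against 2.76%, 2.57% and 2.81% in DE libraries, and here every KD library was below every DE library, though KD replicate 3 and DE replicate 2 differed only beyond the printed digits. MT-ND3 had 3368, 3356 and 5908 TPM in KD libraries, against 2472, 2856 and 4964 TPM in DE libraries. Each KD library exceeded the DE library of the same number, yet replicate 3 of DE lay above replicates 1 and 2 of KD. MT-ND6, the one messenger RNA on the minus strand, made up 2.08% ± 0.127 in KD and 2.22% ± 0.181 in DE.

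MT-CYB (chrM:14747-15887, plus strand) encodes cytochrome b, the only mitochondrially encoded subunit of complex III. It had 10714, 10773 and 12033 TPM in KD libraries, against 9605, 7841 and 11360 TPM in DE libraries. Its share was 3.79%, 3.74% and 3.32% in KD libraries and 3.37%, 3.19% and 2.99% in DE libraries. KD replicate 3 lay just under DE replicate 1, so the groups overlapped, while each KD library exceeded the DE library of the same number.

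The 3 catalytic subunits of complex IV, cytochrome c oxidase, were the most abundant mitochondrial RNAs per length and together made up 42.4% ± 0.623 of the total in KD and 42.9% ± 1.49 in DE (SD, n = 3 each). MT-CO1 (chrM:5904-7445, plus strand) had a share of 14.5%, 14.2% and 13.3% in KD libraries, against 16.1%, 16.1% and 14.8% in DE libraries. MT-CO3 (chrM:9207-9990, plus strand) had 14.9%, 14.7% and 14.7% in KD libraries, against 13.9%, 14.01% and 13.4% in DE libraries. Neither RNA overlapped between groups: MT-CO1 was lower in KD and MT-CO3 higher in KD. MT-CO3 had the largest mean share in KD and MT-CO1 the largest in DE. MT-CO2 made up 13.6% ± 0.129 in KD and 13.5% ± 0.460 in DE, with overlap. In TPM, MT-CO1 had 41131, 40817 and 48135 in KD libraries, against 45861, 39474 and 56342 in DE libraries, and MT-CO3 had 42060, 42358 and 53195 in KD libraries, against 39668, 34442 and 51043 in DE libraries. On that scale both overlapped, and replicate 3 was the highest library of each group.

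**Figure D2:**
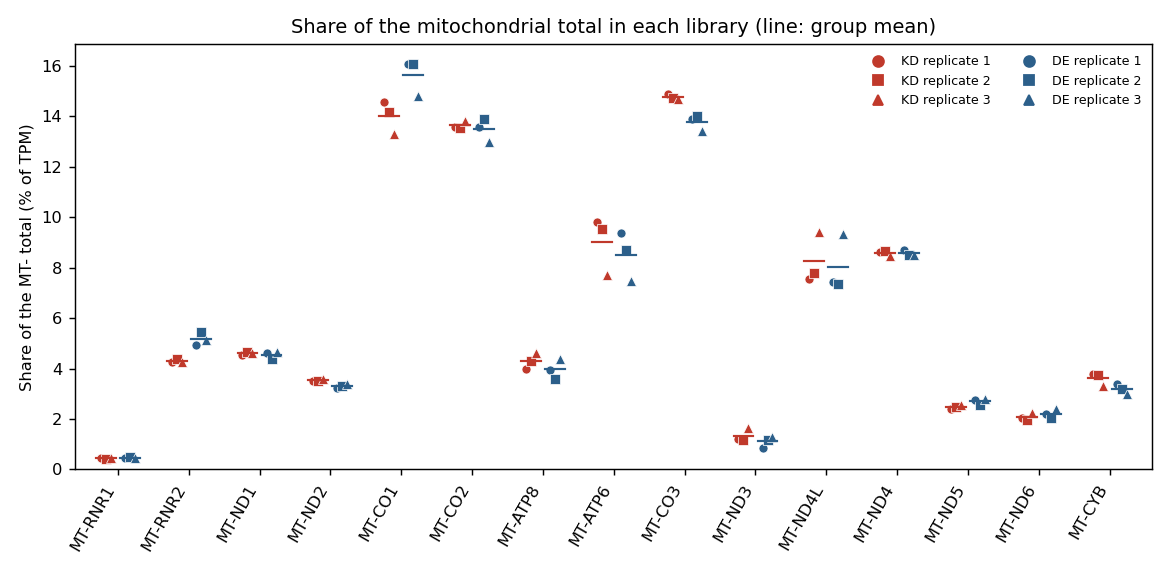
Share of the mitochondrial TPM (percent) of the 2 ribosomal and 13 messenger RNAs in genome order. Points are single libraries, with KD left of DE, and lines are group means. MT-RNR2, MT-CO1 and MT-ND5 did not overlap and were lower in KD, MT-ND2 and MT-CO3 did not overlap and were higher in KD. Of all genes tested, 29.8% did not overlap, with mitochondrial RNAs set against the mitochondrial total and other genes against the remainder.

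The ATP synthase subunits MT-ATP8 and MT-ATP6 are read from one bicistronic messenger RNA, as are MT-ND4L and MT-ND4. The genes of each pair overlap in the genome, so reads in the overlap cannot be assigned to one of them. The ends of the upstream genes (GENCODE 29 transcripts, GRCh38, plus strand, chrM:8503-8572 for MT-ATP8 and chrM:10727-10766 for MT-ND4L) show how much is shared; capitals mark the 46 bases that MT-ATP8 shares with MT-ATP6 and the 7 bases that MT-ND4L shares with MT-ND4.
MT-ATP8: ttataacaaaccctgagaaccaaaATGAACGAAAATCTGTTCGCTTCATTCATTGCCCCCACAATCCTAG
MT-ND4L: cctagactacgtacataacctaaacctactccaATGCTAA
The shared bases are 22.2% of MT-ATP8 but 2.36% of MT-ND4L. Although each pair shares one molecule, the 2 members of a pair did not have the same TPM. MT-ATP8 stood at 0.405, 0.450 and 0.595 of the TPM of MT-ATP6 in KD libraries, against 0.419, 0.412 and 0.586 in DE libraries. MT-ND4L stood at 0.874, 0.898 and 1.11 of the TPM of MT-ND4 in KD libraries, against 0.851, 0.864 and 1.10 in DE libraries. Both ratios were highest in replicate 3 of each group and overlapped between the groups. MT-ATP6 alone had nearly the same level in every KD library, with 27770, 27459 and 27970 TPM, against 26701, 21432 and 28442 TPM in DE libraries.

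Transfer RNAs spanned the widest range of all members, and 3 of them, on the minus strand, held nearly all of the signal. MT-TC, MT-TN and MT-TP, the transfer RNAs for cysteine, asparagine and proline, made up 93.3%, 93.1% and 95.7% of the transfer RNA TPM in KD libraries, against 92.4%, 92.3% and 95.3% in DE libraries. MT-TC had 8857, 9442 and 13882 TPM in KD libraries, against 8998, 8761 and 16865 TPM in DE libraries. MT-TN had 1939, 2152 and 2639 TPM in KD libraries, against 1807, 2136 and 3109 TPM in DE libraries. Both overlapped between the groups. The plus-strand transfer RNAs, 14 genes, summed to only 711, 676 and 692 TPM in KD libraries and to 709, 766 and 889 TPM in DE libraries. The sources used here do not give the strand setting. Reads from a transfer RNA and from the precursor that crosses the same bases on the other strand therefore cannot be told apart. Reads from mature transfer RNAs and from longer precursors on the same strand cannot be told apart either. The order by TPM therefore need not be the order of the transfer RNAs themselves.

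The sequences of the 3 transfer RNAs with the highest TPM are shown first. Those of MT-TM and MT-TH, which came nearest to the threshold of the test by TPM, follow. MT-TL1, a leucine transfer RNA that follows MT-RNR2 and holds the binding site of the termination factor MTERF1, comes last among the sequences. They are the GENCODE 29 transcripts on GRCh38, written 5′ to 3′, with the anticodon in capitals: chrM:5761-5826, chrM:5657-5729 and chrM:15956-16023 on the minus strand, and chrM:4402-4469, chrM:12138-12206 and chrM:3230-3304 on the plus strand.
MT-TC: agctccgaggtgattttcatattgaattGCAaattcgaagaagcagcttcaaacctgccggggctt
MT-TN: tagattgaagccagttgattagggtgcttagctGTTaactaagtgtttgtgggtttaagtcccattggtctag
MT-TP: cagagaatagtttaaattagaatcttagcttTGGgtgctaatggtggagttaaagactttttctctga
MT-TM: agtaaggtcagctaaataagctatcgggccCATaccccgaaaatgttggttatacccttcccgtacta
MT-TH: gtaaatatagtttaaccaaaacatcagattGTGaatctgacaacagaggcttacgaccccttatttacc
MT-TL1: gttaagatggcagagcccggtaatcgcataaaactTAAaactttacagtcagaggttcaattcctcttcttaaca
MT-TL1 was among the 4 transfer RNAs with the highest TPM. It had 345, 330 and 467 TPM in KD libraries, against 306, 345 and 516 TPM in DE libraries, with overlap. The genes are only 59 to 75 bases long, and 14 of the 22 averaged under 20 estimated reads a library. MT-TM, for methionine, had 6, 8 and 5 estimated reads in KD libraries, against 2, 2 and 3 in DE libraries. MT-TH, for histidine, had 32, 40 and 33 in KD libraries, against 61, 56 and 59 in DE libraries. Those counts do not overlap, MT-TM being higher and MT-TH lower in KD. MT-TP, for proline, had 693, 759 and 1176 estimated reads in KD libraries, against 581, 523 and 759 in DE libraries, and its TPM of 1808, 1714 and 2140 in KD libraries, against 1194, 1198 and 1728 in DE libraries, overlapped only through KD replicate 2 and DE replicate 3. As a share of the mitochondrial total, MT-TP was 0.639%, 0.595% and 0.591% in KD libraries and 0.419%, 0.487% and 0.454% in DE libraries, with every KD library above every DE library.

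**Figure D3:**
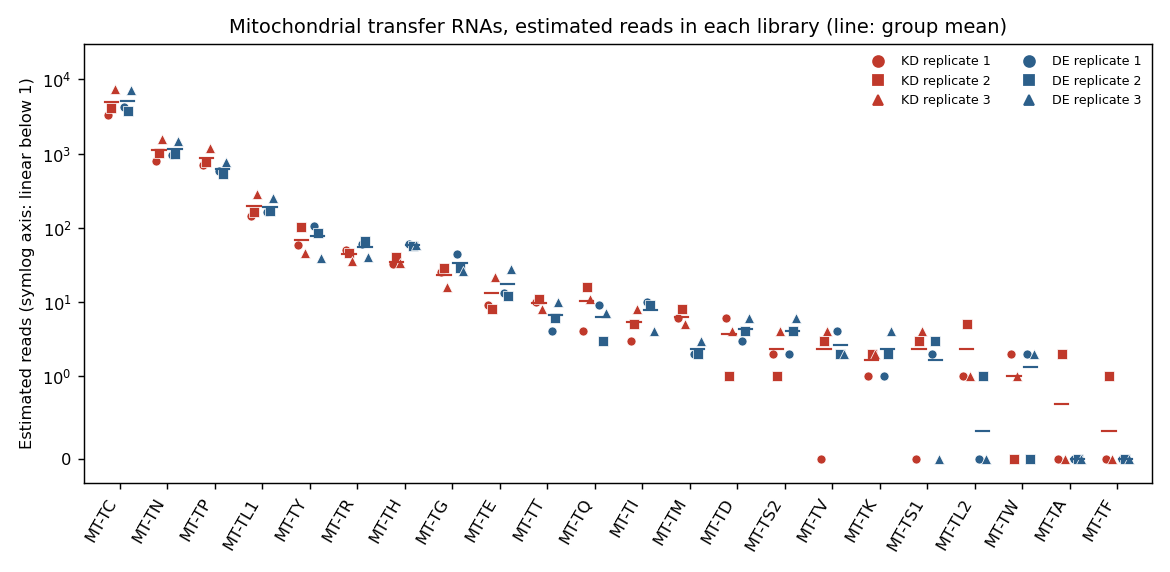
Estimated reads of the 22 transfer RNAs, ordered by mean level, on a symmetric log axis that is linear below 1 read. Points are single libraries, with KD left of DE, and lines are group means; MT-TC, MT-TN and MT-TP stand far above the rest, and 14 transfer RNAs averaged under 20 reads.

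At the low end, MT-TF, for phenylalanine, had 1 read in KD replicate 2 and none in any other library, and MT-TA, for alanine, had 2 reads in the same library and none elsewhere. MT-TW, for tryptophan, had 2, 0 and 1 reads in KD libraries, against 2, 0 and 2 in DE libraries. MT-TL2, the other leucine transfer RNA, had 1, 5 and 1 reads in KD libraries, against 0, 1 and 0 in DE libraries. MT-TS2, for serine, had 2, 1 and 4 reads in KD libraries, against 2, 4 and 6 in DE libraries. These 5 RNAs thus rest on 0 to 6 reads a library, and so do any calls given for them below. Other RNAs that carry no poly(A) tail or stay in the nucleus differed between libraries as well: a list of 18 summed to 196, 42.4 and 27.3 TPM in KD libraries, against 48.9, 71.4 and 34.1 TPM in DE libraries, led by the RNase P RNA RPPH1 at 99.5 TPM in KD replicate 1. Its part in the transfer RNA values was not tested.

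Whether any member differed between KD and DE was tested with limma on log2(TPM + 1) across the 17711 genes that had at least 1 TPM in at least 3 libraries, which 35 members met. None of the 35 passed an adjusted p of 0.05, where 3.27% of all genes tested did. At an unadjusted p of 0.05 there were 4, namely MT-TM, MT-TH, MT-TL2 and MT-TP, where 15.4% of all genes reached it. The log2 changes ran over -0.74 for MT-TH to 1.72 for MT-TL2, with 16 above 0 and 19 below 0 and a median of -0.04, beside a median of -0.01 over all genes tested. Among the 13 messenger RNAs the changes lay between -0.11 (MT-CO1) and 0.31 (MT-ND3), with 95% intervals of -0.46 to 0.24 for MT-CO1 and -0.42 to 1.04 for MT-ND3. For MT-RNR2 the change was -0.22 with an interval of -0.61 to 0.18.

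MT-TM and MT-TH were the members nearest to the threshold. MT-TM, on 2 to 8 reads a library, had 14.3 ± 4.64 TPM in KD and 5.17 ± 1.45 TPM in DE (SD, n = 3 each), and its log2 change was 1.28 (SE 0.270, limma adjusted p = 0.0534). MT-TH had 76.8 ± 15.6 TPM in KD and 127 ± 4.49 TPM in DE, a log2 change of -0.74 (SE 0.155, limma adjusted p = 0.0519). They were also the only members whose TPM did not overlap between groups, where 20.8% of all genes tested did not. Set against the TPM of non-mitochondrial genes, both passed in the same directions, with limma adjusted p of 0.0346 for MT-TM and 0.0223 for MT-TH, where 9.58% of all genes passed. Without replicate 3 of both groups MT-TM, MT-TP and MT-TT rose and MT-TH and MT-TI fell, where 6.84% of all genes passed, MT-TT and MT-TI resting on 3 to 11 reads in the 4 libraries left. The call of each of these transfer RNAs thus depended on the scaling or on the libraries kept.

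Replicate numbers were treated as pairs from correlations over all genes. Over the members, KD replicate 1 gave a correlation of 0.503 with DE replicate 3 and -0.243 with DE replicate 1. With the number as a block in the limma fit 4 members rose (MT-TM, MT-ND3, MT-TL2 and MT-TP), where 12.5% of all genes passed in either direction. In that fit 2 members fell (MT-TH and MT-TE, a transfer RNA for glutamate). The adjusted p were 0.0369, 0.0270, 0.00400 and 0.01001 for those that rose, in that order, and 0.0184 and 0.0389 for those that fell. With 6 of 35 called, the members' share was of the same order as that of all genes, and 3 of the 6 (MT-TM, MT-TL2 and MT-TE) averaged under 20 reads.

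The composition of the mitochondrial total was tested next, since it removes the swing of the total between replicates. When all libraries were scaled to one mitochondrial total, limma called 1 member, MT-TL2, where 0.966% of all genes passed. This scaling carries the swing of the mitochondrial total into all other genes, so 0.966% is a low background, beside 3.27% by TPM. The call of MT-TL2 rests on 7 reads in KD libraries and 1 in DE libraries. In that fit limma replaced each gene's own variance by one shared with genes of its level. The median SE of that fit was 0.370 over all genes, against 0.165 by TPM. With the block, 5 members passed upwards on that scale (MT-TM, MT-TL2, MT-TQ, MT-TT and MT-TP) and 7 downwards (MT-RNR2, MT-TV, MT-TI, MT-TG, MT-TH, MT-TS2 and MT-TE), where 8.99% of all genes passed. Of these 12, 8 averaged under 20 reads, such as MT-TV with 0, 3 and 4 reads in KD libraries, against 4, 2 and 2 in DE libraries. In the fit with the block, too, limma replaced each gene's own variance by a shared one. Its median SE was 0.179 over all genes, against 0.0944 by TPM with the block. The count is therefore not read as more than the share of all genes. A further scaling, added after the data were seen, set mitochondrial RNAs against the mitochondrial total and all other genes against the remainder. There MT-TP rose, with a log2 change of 0.43 (SE 0.0716, limma adjusted p = 0.0153), and MT-RNR2 fell, with a log2 change of -0.26 (SE 0.0615, limma adjusted p = 0.0454), where 9.62% of all genes passed. The changes of MT-CO1, MT-CO3 and MT-ND2 were -0.16, 0.10 and 0.10 on this scale and did not pass.

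Both calls depended on single libraries. The call of MT-RNR2 was lost without any one library, with limma adjusted p of 0.0880 to 0.143, and that of MT-TP was lost when KD replicate 1 (0.0558), KD replicate 2 (0.0643) or DE replicate 1 (0.0570) was left out, each of these fits having 5 libraries. Other members passed when libraries were left out: MT-TM without KD replicate 3 (log2 change 1.62, limma adjusted p = 0.00711, where 6.35% of all genes passed) and MT-TI without DE replicate 3 (-1.07, 0.0266, where 6.66% passed). Without replicate 3 of both groups MT-TP, MT-TM, MT-TH and MT-TI passed and MT-RNR2 did not (limma adjusted p = 0.0848), where 7.88% of all genes passed. Without single libraries the log2 changes stayed between -0.29 and -0.23 for MT-RNR2 and between 0.37 and 0.48 for MT-TP. With the replicate block, 4 members rose relative to the mitochondrial total (MT-TM, MT-TL2, MT-CYB and MT-TP) and 5 fell (MT-RNR2, MT-CO1, MT-TG, MT-TH and MT-TE), where 16.1% of all genes passed. Of these 9, MT-TM, MT-TL2 and MT-TE averaged under 20 reads. MT-CYB and MT-CO1 had limma adjusted p of 0.0257 and 0.0399 in that fit, against 0.221 and 0.250 without the block.

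**Figure D4:**
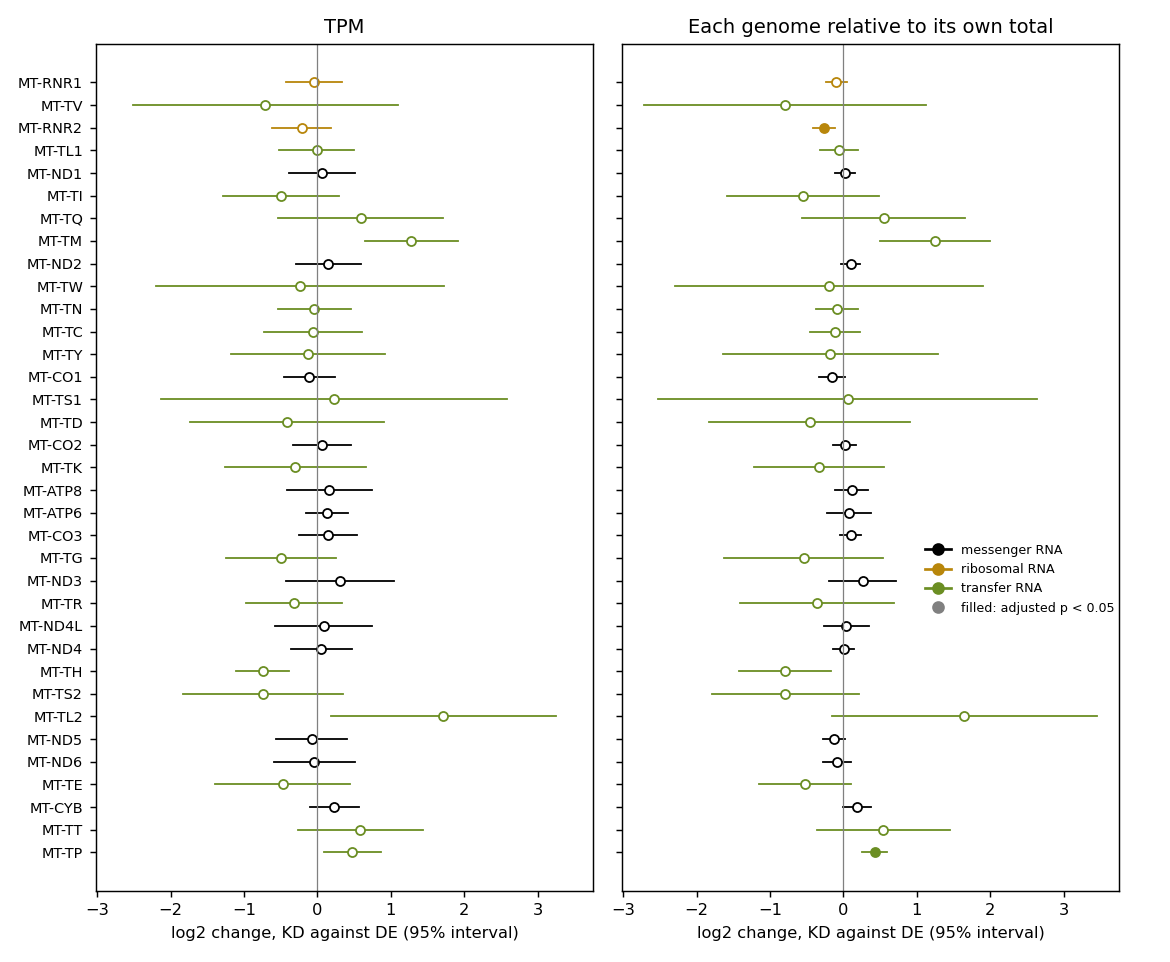
Log2 change of KD against DE with 95% intervals for the 35 members tested, in genome order, by TPM on the left and with each genome set against its own total on the right. Filled points passed an adjusted p of 0.05; none did by TPM, and MT-RNR2 and MT-TP did on the right, where the intervals of the long RNAs other than MT-ATP6 are narrower.

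Counted by overlap, the shares of 8 members separated the groups completely: MT-TM, MT-ND2, MT-CO3 and MT-TP were higher in KD, and MT-RNR2, MT-CO1, MT-TH and MT-ND5 were lower in KD. Of all genes tested, 6.58% did so when scaled to the mitochondrial total, and 29.8% did so when each genome was set against its own total. The first scaling carries the swing of the mitochondrial total into all other genes, so 6.58% is a low background, beside 20.8% by TPM. On the second scale 8 of 35 is no more than the share among other genes. The exact two-sided permutation test of each of these shares gave p = 0.1, the smallest that 3 against 3 libraries allow. Shares of one total are tied to each other: where MT-CO1 takes less, others take more.

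Members also differed between replicates of the same group. In both groups, 21 of the 37 members were highest in replicate 3, among them all 13 messenger RNAs and both ribosomal RNAs. Their proportions differed as well. Among the 18 members with at least 500 reads on average, the share of 9 was higher in replicate 3 than the mean of replicates 1 and 2 in both groups, that of 7 was lower in both, and that of 2 went opposite ways. MT-ND3 took 1.38 times the share in replicate 3 of KD and 1.29 times in replicate 3 of DE, and MT-ND4L took 1.23 and 1.27 times. MT-ATP6 took 0.798 times the share in replicate 3 of KD and 0.827 times in replicate 3 of DE, MT-CYB 0.882 and 0.911 times, and MT-CO1 0.925 and 0.922 times.

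The messenger RNAs did not follow one order by length, but the 4 shortest differed from the rest, a cut that was not set in advance. These 4 (MT-ATP8, MT-ND4L, MT-ND3 and MT-ND6) all took a larger share in replicate 3 of both groups, by ratios of 1.10 to 1.38, and the 9 longer ones had ratios of 0.798 to 1.05. Among those 9 the lowest ratios belonged to MT-ATP6, the shortest of them, and MT-ND5, the longest, had ratios of 1.05 in both groups. Of the transfer RNAs with the highest TPM, MT-TC had ratios of 1.196 in KD and 1.32 in DE. MT-TN had 1.02 and 1.09, and MT-TP 0.957 and 1.00, in the same order. Some transfer RNAs with lower TPM had a lower share in replicate 3 of both groups, such as MT-TY for tyrosine. MT-TY had 58, 103 and 45 reads in KD libraries and 107, 84 and 39 reads in DE libraries. What set replicate 3 apart was not tested.

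**Figure D5:**
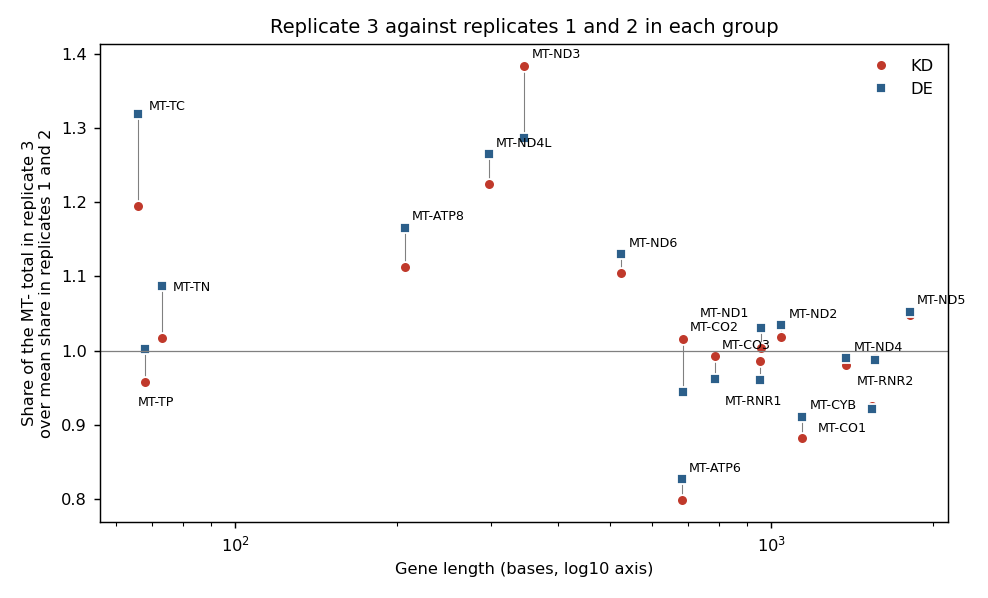
Share of the mitochondrial TPM in replicate 3 over the mean share in replicates 1 and 2, against gene length (log10 axis), for the 18 members with at least 500 reads on average. Circles are KD and squares DE, joined for each RNA; the 4 shorter messenger RNAs lie above 1 in both groups and MT-ATP6, MT-CYB and MT-CO1 lie below it.

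Copies of mitochondrial genes lie in the nuclear genome and can take reads from the members or give reads to them. The table held 386 genes named as such copies, of which 311 were 0 in every library and 7 averaged at least 5 TPM. The highest was MTATP6P1 (chr1:633696-634376, plus strand), which is 98.5% identical to MT-ATP6, with 10 mismatches over 681 bases. The stretch of 80 bases with the most mismatches shows how little separates them; capitals mark the 4 bases that differ between MT-ATP6 (chrM:8639-8718) and MTATP6P1 (chr1:633808-633887), both on the plus strand of GRCh38 in GENCODE 29.
MT-ATP6: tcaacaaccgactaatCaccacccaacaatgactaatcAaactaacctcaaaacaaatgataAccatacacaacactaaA
MTATP6P1: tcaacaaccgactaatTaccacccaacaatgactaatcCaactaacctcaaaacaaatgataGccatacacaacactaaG
MTATP6P1 had 1027, 1088 and 2484 TPM in KD libraries, against 906, 931 and 2241 TPM in DE libraries. It took 3.57%, 3.81% and 8.16% of the TPM of the pair in KD libraries and 3.28%, 4.16% and 7.30% in DE libraries. Replicate 3 stood apart in each group, with overlap between the groups (log2 change 0.18, limma adjusted p = 0.939). MTND2P28 (98.4% identical to MT-ND2) and MTCO1P12 (98.7% identical to MT-CO1) lie on the same stretch of chromosome 1 and were at 387 to 577 TPM and 46.1 to 94.8 TPM in KD libraries, against 385 to 532 TPM and 49.3 to 81.8 TPM in DE libraries. The sources used here do not say how reads that match both places were assigned, and the levels of MT-ATP6, MT-ND2, MT-CO1 and these copies are uncertain to that extent.

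Nuclear genes that make, process and keep mitochondrial RNA, copy and maintain mitochondrial DNA or regulate mitochondrial biogenesis did not pass either. Of 80 such genes 79 were tested and none passed by TPM with limma, where 3.27% of all genes did, and their median log2 change was 0.08. The mitochondrial RNA polymerase POLRMT had 41.2 ± 9.47 TPM in KD and 38.5 ± 10.9 TPM in DE (SD, n = 3 each), the transcription and packaging factor TFAM 50.5 ± 7.78 and 46.0 ± 11.4 TPM, the transcription factor TFB2M 29.6 ± 4.49 and 24.0 ± 6.01 TPM, and the elongation factor TEFM 6.59 ± 1.40 and 5.92 ± 2.17 TPM, in the same order. LRPPRC and SLIRP, which form a complex that stabilises mitochondrial messenger RNAs, had 87.0 ± 10.8 and 28.9 ± 1.48 TPM in KD, against 74.8 ± 14.1 and 23.6 ± 2.67 TPM in DE, the log2 change being 0.22 for LRPPRC (limma adjusted p = 0.645) and 0.28 for SLIRP (0.295).

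With the replicate block 6 of the 79 rose and none fell, where 5.88% of all genes tested rose. They were the DNA helicase C10orf2 (also known as TWNK), the oligoribonuclease REXO2, and the coactivators of mitochondrial biogenesis PPARGC1B and PPRC1. The others were QTRT1 and QTRTD1, the subunits of the enzyme that inserts the queuosine base. C10orf2 had 32.7, 37.2 and 31.6 TPM in KD libraries, against 23.5, 24.7 and 22.8 TPM in DE libraries, and limma adjusted p of 0.0528 without and 0.00756 with the block. PPRC1 had 69.2, 77.6 and 77.0 TPM in KD libraries, against 57.4, 53.5 and 53.0 TPM in DE libraries, with adjusted p of 0.0535 and 0.0164. In both genes every KD library was above every DE library.

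None of the nuclear-encoded partners of the 13 proteins passed by TPM either. Of 78 genes for subunits of complexes I, III, IV and V, 76 were tested with limma, where 3.27% of all genes passed, and their median log2 change was 0.01. With the block 2 rose, NDUFB1 of complex I and ATP5G1 of the ATP synthase, and 1 fell, UQCRC1, a core subunit of complex III. These are 3 of 76, where 12.5% of all genes passed with the block. UQCRC1 had 198, 202 and 176 TPM in KD libraries, against 247, 253 and 211 TPM in DE libraries, without overlap (log2 change -0.30, limma adjusted p = 0.230 without and 0.0150 with the block). MT-CYB, the mitochondrial partner of UQCRC1 in complex III, had a log2 change of 0.23 by TPM (limma adjusted p = 0.555). Summed over the list, these partners reached 6757, 6871 and 5908 TPM in KD libraries, against 6587, 6985 and 5701 TPM in DE libraries, lowest in replicate 3 of each group, where the mitochondrial RNAs, which share the same library total, were highest.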

How the data were processed

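RNA-seq of total RNA was analysed in 6 libraries, 3 KD and 3 DE. The values are TPM as deposited by the authors, for 58830 genes in 1 table. The build GRCh38 and the tools featureCounts, HISAT2 2.1.0 and DESeq2 appear in the submitters' processing notes without their roles. The sources used here do not give the annotation release, the strand setting or the treatment of multiply mapping reads.

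Members and gene lists were chosen with earlier results of these data known. Log2(TPM + 1) was tested with limma 3.58.1 in R 4.3.3 (empirical Bayes with trend, group as the term, Benjamini-Hochberg over 17711 genes with at least 1 TPM in 3 of 6 libraries, threshold 0.05). The fit by TPM without the block was tested on simulated reads with no replicate effect and no swing of the mitochondrial total. Fits with the block or on other scales were not simulated. Reads were estimated as TPM times the length of the matching GENCODE 29 gene, divided by the value of 1 read; 88.2% to 89.0% of values under 50 reads lay within 0.02 of a whole number, and for members 36 or 37 of 37 did. They describe depth and entered no test. Single values were compared by exact permutation.

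Libraries with the same number deviated together from their group means over all genes tested (correlations 0.108, 0.144 and 0.347), so numbers were treated as pairs. However, KD replicate 1 with DE replicate 2 gave 0.121, and KD replicate 2 with DE replicate 1 gave 0.0769. The pairing over all genes thus rested mostly on replicate 3. Over the 35 members the same numbers gave -0.243, 0.567 and 0.0986. The highest value between unlike numbers was 0.503, for KD replicate 1 with DE replicate 3. The text names all messenger and ribosomal RNAs, the 4 highest and 4 lowest transfer RNAs, the 2 largest rises and falls, members past the threshold and 6 named machinery genes; MT-TP, MT-TE, MT-TG, MT-TI, MT-TQ, MT-TT, MT-TV, MT-TY, RPPH1, the nuclear copies and genes called only with the block were named after their values were seen.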

Additional observations from a re-analysis of the deposited data

How the results depend on the processing

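The 15 long RNAs had at least 6119 reads in every library, and 14 of 22 transfer RNAs averaged under 20. How counting error and the spread between libraries share in the error of each value was not separated.

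The count of mitochondrial RNAs called by TPM was 0. It was 6 with the replicate block (4 higher, 2 lower), 2 relative to non-mitochondrial TPM and 6 with that scaling and the replicate block, 2 with each genome set against its own total and 9 with that and the replicate block, 2 each with median-ratio scaling, quantile normalization, a mean of at least 5 TPM or a threshold of 0.1, 1 at equal mitochondrial total, and 5 without replicate 3 of both groups; without single libraries it was 0 to 2. At equal mitochondrial total the count was 1. It was 0 with robust variance, a mean of at least 5 TPM or no filter, 3 with a pseudocount of 0.1, 2 at a threshold of 0.1, 12 with the replicate block and 9 without replicate 3 of both groups; without single libraries it was 0 to 4. Of all genes, 0.966% passed on the scale of equal mitochondrial total, and 8.99% with the block. That scale carries the swing of the mitochondrial total into all other genes. For the other settings on that scale no share of all genes is given. The member counts under those settings therefore cannot be judged against other genes. By TPM, all genes called numbered 489 with a mean of at least 5 TPM, and those for the other settings named follow below. The scalings to each genome's own total and the combination with the block were chosen after seeing the data.

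All genes called numbered 579. They were 2215 with the replicate block, 1696 relative to non-mitochondrial TPM and 2846 with that and the block, 1703 with each genome against its own total and 2856 with that and the block, 1753 with median-ratio scaling, 1735 with quantile normalization, 171 at equal mitochondrial total, 239 with no filter, 1212 without replicate 3 of both groups, 106 and 1053 at thresholds of 0.01 and 0.1, and 87 to 610 without single libraries (87 without KD replicate 2, 610 without DE replicate 3). Machinery genes called numbered 0. They were 6 with the replicate block, 4 and 10 relative to non-mitochondrial TPM without and with the block, 4 and 9 against own totals without and with the block, 3 each with median-ratio scaling, quantile normalization or a threshold of 0.1, 2 each with a mean of at least 5 TPM or without replicate 3 of both groups, and 1 without the variance trend. All were higher in KD. Of all genes, 12.5% passed with the block and 5.88% rose. In either direction 9.58% passed relative to non-mitochondrial TPM, and 9.62% and 16.1% against own totals without and with the block. For settings other than the block the share of all genes that rose is not given, nor is any count of all genes without the variance trend. The machinery counts are therefore not read as a joint rise. Respiratory partners called numbered 0. They were 3 with the replicate block, 2 and 5 relative to non-mitochondrial TPM, 2 and 5 against own totals, and 1 each with median-ratio scaling, quantile normalization or without replicate 3 of both groups. The cause of these shifts was not tested.

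GATA6-AS1 (log2 change -1.26) missed a threshold of 0.01, and its change was -1.38 to -1.11 without single libraries. The ribosomal share was 0.897 points lower in KD by TPM; by reads the difference was -1.32 points. Of the single RNAs followed by TPM, 13 turned sign under at least 1 setting, and the others kept it. Libraries left out on the scale of each genome's own total were not counted here. On that scale MT-ATP6 had a log2 change of 0.081, and -0.0095 without DE replicate 3. Signs turned for MT-ND6 (0.063 with quantile normalization, 0.031 without replicate 3 of both groups), MT-TL1 (0.00089 relative to non-mitochondrial TPM with and without the block, 0.0062 with quantile normalization, 0.055 without replicate 3 of both groups), and, without replicate 3 of both groups, MT-TC (0.043), MT-TN (0.056) and MT-TW (0.14). Without single libraries the changes spanned 0 for MT-ATP8 (-0.047 to 0.41), MT-CO1 (-0.23 to 0.023), MT-CO2 (-0.056 to 0.21), MT-ND1 (-0.10 to 0.25), MT-ND4 (-0.095 to 0.22), MT-ND4L (-0.12 to 0.38), MT-ND5 (-0.26 to 0.12), MT-ND6 (-0.24 to 0.19), MT-RNR1 (-0.16 to 0.11), MT-TC (-0.27 to 0.24), MT-TL1 (-0.17 to 0.21), MT-TN (-0.21 to 0.18) and MT-TW (-1.04 to 0.46). None of these 13 RNAs passed a test by TPM.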

Other observations

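The nuclear genes that translate mitochondrial messenger RNAs, 97 proteins of the mitochondrial ribosome and aminoacyl-tRNA synthetases, were also listed. Of 96 tested none passed by TPM with limma, where 3.27% of all genes did, and their median log2 change was 0.07. With the replicate block 8 rose and 4 fell, where 12.5% of all genes passed; the genes named here were chosen after their values were seen. MRPL9, of the large ribosomal subunit, had 38.4, 35.7 and 29.8 TPM in KD libraries, against 65.9, 70.4 and 47.1 TPM in DE libraries, with every KD library below every DE library (log2 change -0.79, limma adjusted p = 0.0599 without and 0.00358 with the block). MRPL36, of the same subunit, had 29.8, 23.6 and 20.5 TPM in KD libraries, against 17.6, 18.2 and 14.1 TPM in DE libraries, and was higher in KD without overlap (log2 change 0.53, adjusted p = 0.168 without and 0.0172 with the block). MARS2, which charges the transfer RNA encoded by MT-TM, had 39.9, 39.1 and 26.7 TPM in KD libraries, against 24.6, 25.7 and 15.1 TPM in DE libraries. Its log2 change was 0.68, with limma adjusted p of 0.213 without and 0.00387 with the block.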
